A study of Mus musculus with 35 samples.

Results

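Acetylation of histone H3 at lysine 27 (H3K27ac) was compared between mouse embryonic fibroblasts (MEF) and cells sorted on day 9 of reprogramming, to see which fibroblast genes kept the mark. All peak lists with the titles H3K27AC_MEF and H3K27AC_DAY9 were taken, which gave 4 of the 22 peak lists of the series, 2 for each stage. The fibroblasts were of the strain C57BL/6 x 129 and the genotype OKSM Col1a1/M2rtTA ROSA26: the Col1a1 locus holds a cassette of the reprogramming factors (Oct4, gene Pou5f1, with Klf4, Sox2 and Myc) that doxycycline turns on through a transactivator in the Rosa26 locus. The MEF libraries came from unsorted fibroblasts in MEF medium without doxycycline. The day 9 libraries came from cells of the same genotype in ESC medium to which doxycycline (1 µg/ml) and ascorbic acid (50 µg/ml) had been added, labelled as sorted for SSEA+, and the series' design text names the marker SSEA1, a carbohydrate of pluripotent cells. Lists of the same mark from unsorted day 3 cells (3), SSEA1-sorted day 6 cells (3) and unsorted V6.5 embryonic stem cells (ESC) in serum and LIF (2), and 10 lists of KLF4 binding, were used only as readouts that had no part in the grouping. The day 3 and day 6 cells had doxycycline and ascorbic acid at the same doses. The KLF4 lists were 2 each from day 3, day 6, day 9, serum ESC, and ESC in 2i (MEK inhibitor at 1 µM and GSK3 inhibitor at 3 µM). The V6.5 line does not carry the cassette, and it was grown on irradiated feeder cells.

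H3K27ac is deposited by the acetyltransferases p300 and CBP at active promoters and enhancers. Promoters that serve many cell types often carry it throughout development, whereas enhancers and a smaller group of promoters carry it in one lineage. Fibroblasts make the collagen-rich extracellular matrix and a contractile cytoskeleton under factors such as AP-1, TEAD, RUNX and TWIST. Reprogramming by OKSM silences this programme and opens epithelial and then pluripotency genes.

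The MEF lists held 88070 and 88347 peaks on chromosomes 1 to 19 and X, and the day 9 lists 43974 and 45506. The MEF peaks covered 82.8 and 83.5 Mb and the day 9 peaks 48.9 and 49.5 Mb. Replicate lists overlapped with a Jaccard index (shared over joint covered length) of 0.709 for MEF and 0.702 for day 9, against 0.203 to 0.209 between the stages. Read depth was not known, and a region without a peak is one without a listed peak, not one without signal. All MEF libraries carry the batch label EC-DG-3458 and all day 9 libraries EC-EA-3702, so batch and stage cannot be told apart. In a peak list, fewer cells with the mark and less mark per cell cannot be told apart either.

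Merging the 4 lists gave 119753 regions. A region was called lost when both MEF lists and no day 9 list had a peak in it, gained in the opposite case, common when all 4 lists did, and undecided otherwise. There were 42382 lost regions (35.4%), 15103 gained regions (12.6%), 16328 common regions (13.6%) and 45940 undecided ones. The excess of lost over gained regions went with the longer MEF lists: with the 43974 best-scoring peaks of each list, there were 19091 lost and 17142 gained regions. Leaving out a MEF library, so that 1 list defined the stage, gave 65060 lost regions without the first and 64846 without the second, and leaving out a day 9 library gave 23660 and 22856 gained regions.

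At the level of genes the 2 stages were more alike. The start of a gene was taken from RefSeq, which gave one for 17274 of 21631 protein-coding genes, and a promoter was called held when all 4 lists had a peak within 1 kb of the start. Lost and gained were defined as for regions, never means no peak in any of the 4 lists, and mixed is every other pattern. By this rule 8771 promoters were held (50.8%), 735 were lost (4.25%), 595 were gained (3.44%), 6278 were never listed and 895 were mixed. With the 43974 best-scoring peaks of each list, 516 were lost and 866 were gained, so the excess of lost over gained promoters turned around. Of the 9799 promoters with a peak in both MEF lists, 89.5% were held and 7.5% were lost. Of the 61052 regions with a peak in both MEF lists, by contrast, 26.7% were common and 69.4% were lost.

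To show what the 3 kinds of promoter look like in sequence, 6 RefSeq promoters of the mouse build GRCm38.p6, from 250 bases before to 50 bases after the start, follow in 5′ to 3′ order with every CpG in capitals. They were picked to span the CpG content within each call: Ccn1 and Sparc were held, Col3a1 and Fgf7 were lost, and Fgf4 and Cldn4 were gained.
Ccn1 (chr3:145649936-145650235, reverse strand): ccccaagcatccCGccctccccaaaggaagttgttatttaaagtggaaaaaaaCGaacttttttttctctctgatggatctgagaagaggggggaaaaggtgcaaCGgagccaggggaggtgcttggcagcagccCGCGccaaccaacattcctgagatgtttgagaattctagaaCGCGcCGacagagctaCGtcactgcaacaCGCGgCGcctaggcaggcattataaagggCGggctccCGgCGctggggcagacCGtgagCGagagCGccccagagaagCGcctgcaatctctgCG
Sparc (chr11:55420031-55420330, reverse strand): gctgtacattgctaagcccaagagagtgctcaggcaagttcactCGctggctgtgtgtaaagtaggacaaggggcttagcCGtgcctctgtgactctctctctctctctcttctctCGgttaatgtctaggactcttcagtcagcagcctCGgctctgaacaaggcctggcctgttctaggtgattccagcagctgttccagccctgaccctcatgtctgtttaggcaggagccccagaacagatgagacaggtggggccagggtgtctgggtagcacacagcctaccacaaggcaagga
Col3a1 (chr1:45311288-45311587, forward strand): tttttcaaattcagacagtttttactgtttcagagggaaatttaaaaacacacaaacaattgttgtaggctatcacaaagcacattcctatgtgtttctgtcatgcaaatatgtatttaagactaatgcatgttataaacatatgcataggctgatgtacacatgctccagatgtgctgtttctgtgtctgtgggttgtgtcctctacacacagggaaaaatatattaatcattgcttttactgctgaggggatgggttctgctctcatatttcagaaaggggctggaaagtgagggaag
Fgf7 (chr2:126034408-126034707, forward strand): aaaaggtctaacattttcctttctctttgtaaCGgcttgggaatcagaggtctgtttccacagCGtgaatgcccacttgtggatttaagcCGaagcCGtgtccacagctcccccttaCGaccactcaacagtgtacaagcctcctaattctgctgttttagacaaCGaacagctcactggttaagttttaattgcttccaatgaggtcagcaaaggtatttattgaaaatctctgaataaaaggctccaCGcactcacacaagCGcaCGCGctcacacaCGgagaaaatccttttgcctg
Fgf4 (chr7:144861136-144861435, forward strand): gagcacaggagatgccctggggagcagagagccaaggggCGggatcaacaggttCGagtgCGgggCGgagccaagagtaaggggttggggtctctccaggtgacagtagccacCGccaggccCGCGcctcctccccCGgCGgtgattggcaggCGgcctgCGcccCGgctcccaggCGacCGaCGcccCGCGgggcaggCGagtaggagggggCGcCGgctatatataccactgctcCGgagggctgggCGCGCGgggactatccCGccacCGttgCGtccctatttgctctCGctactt
Cldn4 (chr5:134946885-134947184, reverse strand): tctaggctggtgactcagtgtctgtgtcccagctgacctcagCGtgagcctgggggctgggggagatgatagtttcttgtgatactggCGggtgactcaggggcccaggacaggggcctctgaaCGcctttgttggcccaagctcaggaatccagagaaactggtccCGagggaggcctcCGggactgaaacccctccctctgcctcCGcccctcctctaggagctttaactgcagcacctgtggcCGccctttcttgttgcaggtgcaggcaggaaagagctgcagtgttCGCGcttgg

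Ccn1 encodes a matricellular protein that YAP and TEAD induce, and its held promoter has 20 CpG, at 0.823 times the number expected from its C and G content. Sparc encodes a collagen-binding matrix protein, and its promoter was held with only 4 CpG, a ratio of 0.174. Col3a1 encodes the chain of type III collagen, and its lost promoter has no CpG at all. Fgf7 encodes keratinocyte growth factor, which mesenchyme sends to epithelia, and its promoter was lost although it has 11 CpG, a ratio of 0.72. Among the gained promoters, that of the pluripotency growth factor gene Fgf4 has 28 CpG, a ratio of 0.774, and that of the tight junction gene Cldn4 has 9, a ratio of 0.324.

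Across the genome the calls went with CpG content. The median ratio of observed to expected CpG was 0.806 for held, 0.581 for gained, 0.376 for lost and 0.188 for never listed promoters, against 0.589 for all 17274. When the 9799 promoters acetylated in both MEF lists were cut by this ratio into 4 groups of equal size, the share lost at day 9 was 22.6% in the CpG-poorest group, then 4.49%, 2.04% and 0.857% in the CpG-richest. Held shares ran the other way, from 70.8% to 98.1%.

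**Figure D1:**
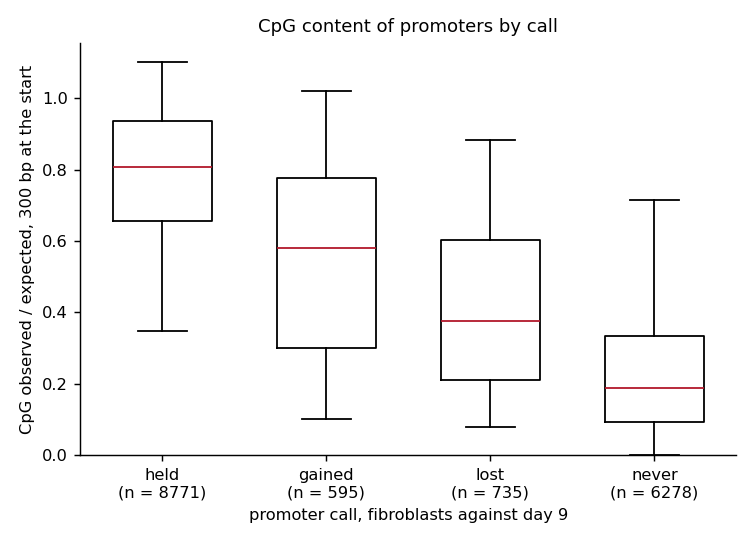
Ratio of observed to expected CpG (vertical axis) in the 300 bases at each start, for held, gained, lost and never listed promoters. Boxes span the quartiles with the median in red, and whiskers reach the 5 and 95 percentiles over promoters; the medians step down from 0.806 for held to 0.376 for lost and 0.188 for never listed promoters.

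Short motifs were counted in the same windows on both strands. The AP-1 motif TGANTCA was in 4.02% of held, 10.3% of lost and 5.88% of gained promoters, against 7.06% of all promoters and 10.9% of those never listed. The TATA box TATAAA was in 5.89% of held and 13.2% of lost promoters, against 13.3% of all and 24.5% of those never listed. Both motifs were thus more frequent in lost than in held promoters, but no more frequent than in the CpG-poor promoters that were never listed. The KLF motif GGGNGTGG was in 23.5% of held, 22.9% of lost and 25.5% of gained promoters, against 19.5% of all. Of the printed sequences, those of Ccn1 and Col3a1 hold TATAAA and that of Cldn4 holds TGANTCA.

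How strongly a region was listed in fibroblasts, and whether it lay at a start, both went with its fate. Regions of both MEF lists were ranked by the deposited score within each list and cut into 10 equal parts. The share found in both day 9 lists was 5.65% in the weakest part and 83.0% in the strongest. Within 1 kb of a start it went from 28.9% to 98.0%, and away from starts from 4.95% to 62.0%. Of the 3566 strongest regions at a start, 46 were lost (1.29%), whereas of the 2540 strongest regions elsewhere 841 were lost (33.1%). Elsewhere means away from a tabled start, and may include starts of the 4357 genes without one in RefSeq. When the day 9 lists were shifted by 1 Mb, 4.44% of all MEF regions met a peak in both. Of the weakest regions away from starts 2.97% did so, against the 4.95% found in the unshifted lists, and of the strongest there 8.35%, against 62.0%.

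**Figure D2:**
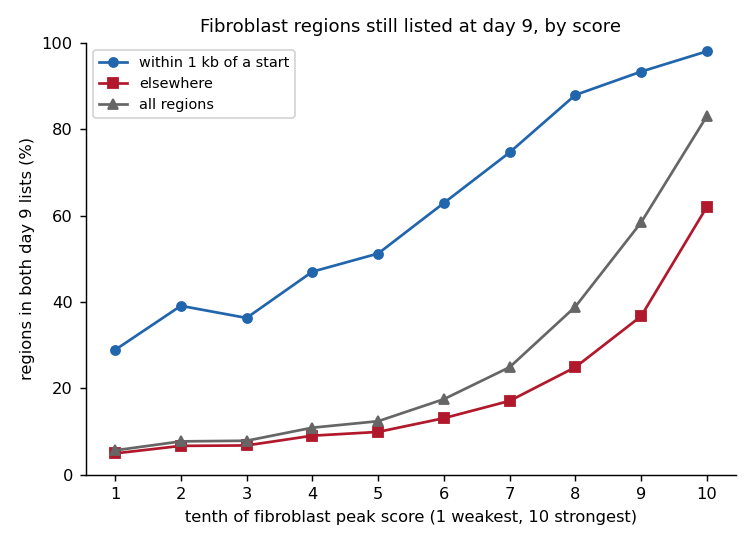
Percent of regions with a peak in both MEF lists that also had one in both day 9 lists (vertical axis), by part of the deposited MEF score from weakest to strongest (horizontal axis). Points at starts (circles) lie above points elsewhere (squares) in every part, from 28.9% against 4.95% in the weakest to 98.0% against 62.0% in the strongest.

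Common regions were the broadest, with a median width of 2104 bp against 785 bp for lost and 964 bp for gained regions. These are widths of merged regions. A common region joins peaks of all 4 lists and a lost or gained region those of a single stage, so the rule itself favours broader common regions. Of the common regions 51.3% overlapped a window of 1 kb to each side of a start, against 2.79% of lost and 4.78% of gained regions. After a shift by 1 Mb these shares were 4.89%, 2.5% and 2.79%. Peaks within 1 kb of a start made up 13.2% ± 0.0758 of the MEF lists and 22.9% ± 0.131 of the day 9 lists (SD, n = 2 each). The difference of 9.7 points was larger than the spread between replicates, but a two-sided exact permutation test of 2 against 2 libraries allows no p below 0.33 (p = 0.33), and it was 0.829 points with equal numbers of top peaks.

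Keeping a peak at the start did not mean keeping the same breadth of the mark. The length covered by peaks within 5 kb of the start had a median over the held promoters of 2061 and 2074 bp in the MEF lists and 1846 and 1880 bp in the day 9 lists. The means were 2067.5 ± 9.19 and 1863.0 ± 24.0 bp (SD, n = 2 each), a difference of day 9 minus MEF of -204.5 bp (exact permutation test, two-sided, p = 0.33, again the smallest possible). The difference was -120.2 bp with equal numbers of top peaks. Both day 9 lists covered less than both MEF lists at 4245 held promoters (48.4%), and both covered more at 2630 (30.0%). Held promoters were also cut into 4 equal parts by their mean coverage over the 4 lists. Of the 2193 with the longest coverage 51.3% were shorter at day 9, and of the 2193 with the shortest 45.2%, with median ratios of day 9 to MEF of 0.911 and 0.899, so the difference went little with length.

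The fibroblast genes were read from 5 lists: matrix, contractile, mesenchymal factors, AP-1, and fibroblast surface and signals. They had 80 members with a start in RefSeq. Of the 77 with a peak in both MEF lists, 51 were held (66.2%) and 16 were lost (20.8%), and 10 had a peak in 1 day 9 list, against 89.5% held and 7.5% lost for all promoters with such peaks. Both day 9 lists covered less than both MEF lists at 48 of the 51 held members. Of the 51, 47 were among the 2193 held promoters with the longest MEF coverage, from 2929.5 bp upward, and there 44 of 47 were shorter and 22 covered less than 50% of the MEF length, against 71.9% and 26.2% of all held promoters chosen in this way. Choosing by MEF coverage, which is also the denominator, itself favours shorter day 9 values, in the lists as in the rest. When only the top 50% of each list was used, which left the day 9 lists shorter than the MEF lists, weak day 9 peaks dropped out. Matrix starts were then 5 held and 11 lost, mesenchymal factors 5 held and 10 lost, and surface and signal genes 10 held and 7 lost. Contractile genes were 13 held and 3 lost (Cnn1, Tpm2 and Myl9) and AP-1 genes 9 held and 0 lost. With equal numbers of top peaks the calls moved little. Matrix starts were 8 held and 8 lost, mesenchymal factors 8 and 3, and surface and signal genes 12 and 4. Contractile genes were 13 and 1, and AP-1 genes 9 and 0.

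**Figure D3:**
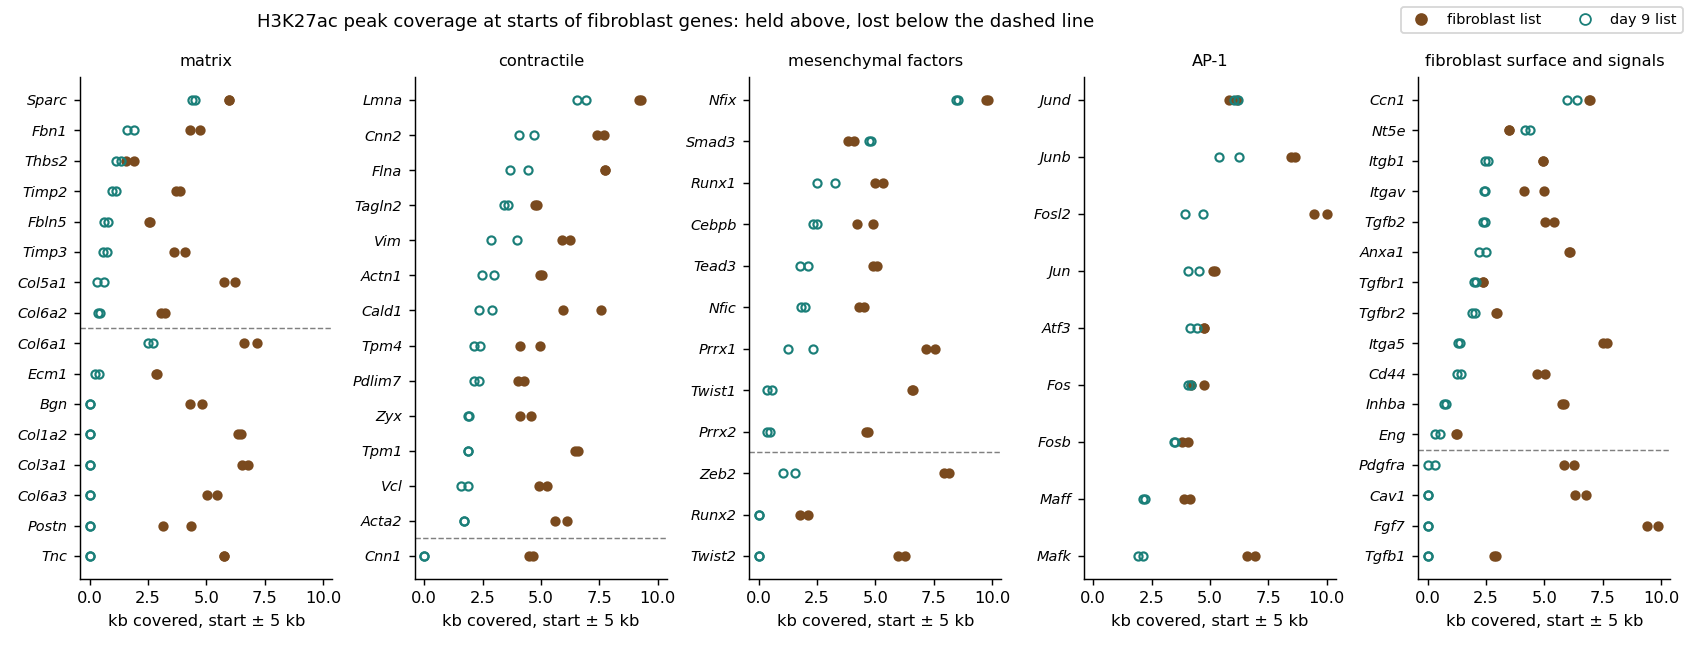
Length covered by H3K27ac peaks within 5 kb of the start (kb, horizontal axis) for the held and lost members of the 5 fibroblast lists, with 1 point per library (filled, MEF; open, day 9). Held genes stand above and lost genes below the dashed line; the open points lie left of the filled points at 48 of the 51 held genes, and Smad3 and Nt5e lie to the right.

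The matrix genes split evenly: of 17 with a start, all with a peak in both MEF lists, 8 were held, 8 were lost and Fbln2 was mixed. Held and lost were 47.1% each, against 89.5% and 7.5% of all such promoters. Col3a1 was covered over 6806 and 6534 bp in the MEF lists and over 0 bp in both day 9 lists. Col1a2, the second chain of type I collagen, went from 6366 and 6491 bp to 0 bp, and was picked after its values were seen because it pairs with Col1a1. Col6a1, a chain of the beaded type VI collagen, was lost at its start but kept a common region nearby, so that its 7192 and 6631 bp compared with 2701 and 2500 bp. The other lost members were Col6a3, Postn, Bgn, Tnc and Ecm1.

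Sparc kept the longest cover of the held matrix genes, 4395 and 4492 bp at day 9 against 5988 and 5982 bp. Day 9 coverage over MEF coverage ran from 0.0767 at Col5a1, which nucleates collagen fibrils, to 0.714 at Thbs2 and 0.742 at Sparc, with a median of 0.273. At Col5a1 the lists covered 5772 and 6246 bp in MEF and 318 and 604 bp at day 9, and with the top 50% of each list it was lost. All 8 held members were shorter at day 9 and no MEF value overlapped a day 9 value.

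Genes without a RefSeq start were read over their full length plus flanks of 2.5 kb. On that scale 58.5% of the 21631 genes were held, 5.7% were lost and 3.92% were gained, and of 11 matrix genes 6 were held, 3 were lost (Loxl2, Lum and Eln) and 2 were mixed. This base, here and below, counts all genes, of which 25.8% had no peak in any of the 4 lists. The 11 matrix genes all had cover in both MEF lists, so the 58.5% is not a matched base for them. Fn1, which encodes fibronectin, was covered over 6733 and 6300 bp in MEF and 5856 and 5609 bp at day 9. Col5a2, the partner of Col5a1, went from 16550 and 15320 bp to 513 and 1448 bp. Loxl2, a collagen cross-linking enzyme, went from 18586 and 18484 bp to 0 bp. The same 2 stages thus left fibronectin nearly as broad as before and Loxl2 without a listed peak.

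Col1a1 needs a separate reading, because the cassette sits in its locus. It counted as held, with 8831 and 9573 bp in MEF and 1374 and 1538 bp at day 9. Its 4 MEF regions, however, were all lost and the day 9 cover came from 1 gained region, so no stretch of it was common. Whether reads of the cassette contribute there was not tested. Over the 28 matrix genes with their flanks, 132 regions were lost, 20 were common and 12 were gained, a lost share of 80.5% against 47.0% over all genes. The share was not particular to matrix genes: it was 73.2% for mesenchymal factors and 70.7% for surface and signal genes. It was 54.4% for contractile and 35.0% for AP-1 genes. For the endothelial and neural markers, whose 7 genes each held 18 and 23 lost regions, it was 85.7% and 85.2%. Single genes made much of some of these shares. Erg held 12 of the 18 lost regions, Map2 held 22 of the 23, and Cald1 held 23 of the 37 of the contractile genes.

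Of 16 contractile genes with a start, all with a peak in both MEF lists, 13 were held (81.2%, against 89.5% of all such promoters), Cnn1 was lost, and Tpm2 and Myl9 were mixed, and all 13 held genes were shorter at day 9 with a median ratio of 0.524. Lmna, which encodes the nuclear lamins A and C, was covered over 9274 and 9206 bp in MEF and 6945 and 6533 bp at day 9. Vim, the mesenchymal intermediate filament gene, had 6254 and 5887 bp and then 2854 and 3968 bp. Flna, an actin cross-linker, had 7743 and 7761 bp and then 3694 and 4436 bp, and Cnn2, a calponin, had 7694 and 7423 bp and then 4050 and 4687 bp. The smooth muscle calponin gene Cnn1 went from 4649 and 4490 bp to 0 bp. In no held contractile gene did the MEF and day 9 values overlap.

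Acta2, the smooth muscle actin gene that marks activated fibroblasts, was singled out after its values were seen. It was covered over 5598 and 6107 bp in MEF and 1693 and 1704 bp at day 9, had a peak in all 3 day 3 and all 3 day 6 lists, and had none in either ESC list. The other 12 held contractile promoters had a peak in both ESC lists, as had 94.4% of all held promoters.

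Among the transcription factors of mesenchymal cells, 9 of 19 starts were held, 3 were lost (Twist2, Zeb2 and Runx2), 5 were mixed (Snai1, Foxf2, Msx1, Ebf1 and Hic1), and Meox2 and Tcf21 were never listed. Of the 16 with a peak in both MEF lists 56.2% were held and 18.8% lost, against 89.5% and 7.5% of all such promoters. Nfix, a nuclear factor I gene, was covered nearly throughout at both stages, over 9807 and 9749 bp in MEF and 8459 and 8556 bp at day 9. Prrx1, a homeobox gene of limb mesenchyme, had 7564 and 7188 bp and then 1236 and 2304 bp, and was mixed with the top 50% of each list. Both had no peak at the start in either ESC list. Smad3, an effector of TGF-beta, was the only held member with more cover at day 9, with 3837 and 4061 bp and then 4797 and 4742 bp.

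The EMT factors took different courses. Twist1 was held by a narrow peak: its 6621 and 6582 bp compared with 341 and 547 bp, a ratio of 0.0673 and the lowest of the 9 held members, and with the top 50% of each list it was lost. It had a peak in every day 3, day 6 and ESC list as well, and it was singled out after its values were seen. Twist2 went from 6287 and 5952 bp to 0 bp, and Zeb2 from 7951 and 8141 bp to 1033 and 1573 bp with no peak within 1 kb of the start. Snai1 had 437 bp in 1 day 9 list and none in the other. Over whole genes, Snai2, Osr1, Meox1 and Foxf1 were lost, and Zeb1, Tead1 and Osr2 were held, where 5.7% of all genes were lost and 58.5% held. Tead1, which encodes the DNA-binding partner of YAP, was covered over 35135 and 34514 bp in MEF and 32663 and 38186 bp at day 9, so the stages overlapped, whereas Zeb1 went from 8602 and 8977 bp to 935 and 1964 bp.

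The AP-1 genes encode FOS, JUN, ATF and MAF partners that bind fibroblast enhancers. Of 10 starts 9 were held (90.0%, against 89.5% of all promoters with a peak in both MEF lists), and Batf3 was mixed. Their median ratio of day 9 to MEF cover was 0.831, above those of the other 4 fibroblast lists. Jund was covered over 5817 and 6177 bp in MEF and 6047 and 6200 bp at day 9, with overlapping values. Junb had 8640 and 8492 bp and then 6231 and 5370 bp, and Jun had 5199 and 5150 bp and then 4049 and 4548 bp. Fosl2 lost most of its breadth, from 10001 and 9464 bp, where 10001 bp is the whole window, to 4700 and 3923 bp. All 9 held promoters had a peak in every day 3, day 6 and ESC list, as had 86.8% of all held promoters at day 3, 76.8% at day 6 and 94.4% in ESC.

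Of the surface and signalling genes of fibroblasts, 12 of 18 starts were held (66.7%), Pdgfra, Cav1, Tgfb1 and Fgf7 were lost (22.2%), and Axl and Fgf2 were mixed. All 18 had a peak in both MEF lists, and of all such promoters 89.5% were held and 7.5% lost. Ccn1 had 6898 and 6942 bp in MEF and 5980 and 6381 bp at day 9. Itga5, the alpha chain of a fibronectin receptor, was held with 7519 and 7673 bp and then 1310 and 1400 bp. Fgf7 went from 9393 and 9878 bp to 0 bp. Nt5e, the ecto-enzyme CD73, had more cover at day 9, with 3468 and 3496 bp and then 4159 and 4378 bp.

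Over whole genes Pdgfrb, which encodes a PDGF receptor, went from 8333 and 9809 bp to 0 bp. Thy1 and Fap were also lost, as were 5.7% of all genes. Thy1, a surface marker used to sort fibroblasts, had 5549 and 6000 bp and then 0 bp. Fgfr1 had more cover at day 9, with 11120 and 10782 bp and then 16712 and 17807 bp, and Wnt5a had 7665 and 7521 bp and then 6512 and 6802 bp. Several defining fibroblast markers thus stood at 0 bp in both day 9 lists while others of the same lists were held.

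A list of cell cycle genes comprised the cyclin-dependent kinase inhibitors Cdkn1a, Cdkn1b, Cdkn2a and Cdkn2b with Trp53, Gadd45a and Mdm2, whose protein inhibits p53. All 7 were held at their starts, where 89.5% of all promoters with a peak in both MEF lists were held. Over the whole gene the cyclins Ccnd1 and Ccnd2, which drive the cycle, and Rb1, which restrains it, were held. On that scale 58.5% of all genes were held, a base that includes genes never listed. Cdkn1a, which encodes the inhibitor p21, was covered over 6283 and 6334 bp in MEF and 7434 and 7377 bp at day 9. Cdkn1b, which encodes p27, had 6430 and 6740 bp and then 4207 and 4551 bp. All 12 housekeeping genes with a start and all 3 without one were held, with a median ratio of 0.873 at the starts, and Gapdh, a glycolytic enzyme gene, had 6118 and 6160 bp and then 6225 and 6356 bp.

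**Figure D4:**
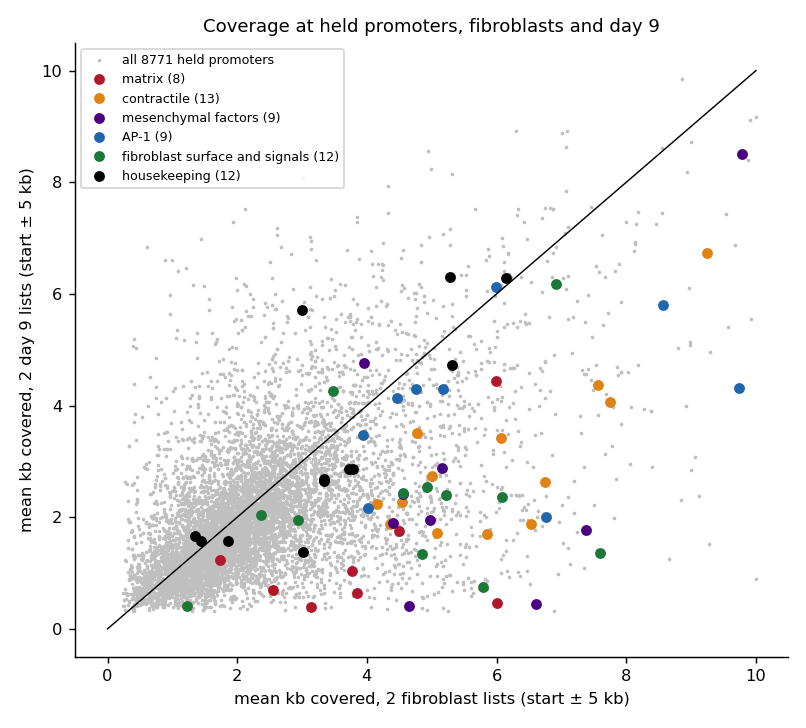
Mean length covered within 5 kb of the start in the 2 day 9 lists (vertical axis, kb) against the 2 MEF lists (horizontal axis, kb) for all 8771 held promoters (grey) and for list members (coloured). The diagonal marks equal length; the 8 held matrix genes lie below it, with a median ratio of 0.273, contractile genes at 0.524, AP-1 genes at 0.831 and housekeeping genes at 0.873.

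The held promoters can be split by whether ESC carry the mark as well. Of 8771 held promoters, 8281 (94.4%) had a peak in both ESC lists and 258 (2.94%) in neither. Those without an ESC peak had a median MEF cover of 1591.5 bp and a median day 9 cover of 956.75 bp, with a median ratio of 0.64 against 0.925 for those with both. At day 6, 105 of the 258 (40.7%) had no peak in any list, against 5.89% of those with ESC peaks. In the 5 fibroblast lists, 7 of 51 held promoters had no ESC peak: Col6a2, Thbs2, Acta2, Prrx1, Nfix, Cd44 and Anxa1. Over whole genes, Col5a2, Lox and Dcn were held without one.

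By a rule chosen after the values were seen, the members of that group with the longest day 9 cover were named. Emp1, an epithelial membrane protein gene, had 5122 and 4774 bp in MEF and 8493 and 8616 bp at day 9, and Nfix came second. Clec2g, a lectin-like receptor gene, had 677 and 550 bp and then 7147 and 6516 bp, and Gm29975 had 5272 and 5083 bp and then 5720 and 5838 bp. Flrt2, which encodes a cell adhesion protein, had 4649 and 4559 bp and then 5497 and 5118 bp. Maml2, a Notch coactivator gene, had 5463 and 6067 bp and then 4988 and 5318 bp. Emp1 and Maml2 had a peak in all 3 day 3 and all 3 day 6 lists, and Flrt2 in no day 3 list and 1 day 6 list. Irradiated feeder cells are usually fibroblasts, and their part in the ESC lists was not tested.

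Over all genes, the held promoters with the longest cover over the 4 lists were those of Id3, Tnrc18, Gm38457, Nfix, Irf2bp2, Zmynd8, H3c11 and Tgif1. Id3, an inhibitor of basic helix-loop-helix factors and a BMP target, was covered over the whole 10001 bp in both MEF lists and over 9104 and 9216 bp at day 9. Gm38457, at 8870 and 8837 bp and then 9788 and 9902 bp, had more at day 9.

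Of the lost promoters with the longest MEF cover, 4 lie in the homeobox clusters that set limb and axial position: Hoxd13, Evx2 and Hoxd11 in one, where the windows of Hoxd13 and Evx2 overlap, and Hoxa9 in another. The others were Omd, Zfp503, Fgf7 and Mgat1. Hoxd13 was covered over the whole 10001 bp in both MEF lists and 0 bp in both day 9 lists, with no peak in any day 3 or day 6 list, yet it had a peak in both ESC lists. Omd, the gene of the matrix protein osteomodulin, had the same MEF and day 9 values but a peak in all 3 day 3 lists and none in the ESC lists. Hoxa9 went from 9939 and 10001 bp to 2568 and 3050 bp.

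Of 15 epithelial genes with a start 12 were gained, where 3.44% of all promoters were, Spint2 was held (gained under equal numbers of top peaks and the top 50%), and Krt8 and Ap1m2 were mixed. Over whole genes, 4 of 7 were gained (Esrp1, Grhl2, Ovol1 and St14), where 3.92% of all genes were gained and 58.5% held. Cldn4 had 500 and 257 bp in MEF and 6362 and 6554 bp at day 9. Grhl2, a master factor of epithelia, went from 0 bp to 15484 and 13737 bp over the gene, and St14, a membrane serine protease, from 0 bp to 8583 and 6573 bp. Epcam, the epithelial adhesion gene, was singled out after its values were seen, with 0 bp in MEF and 4257 and 4937 bp at day 9. Cdh1, which encodes E-cadherin, was already listed in fibroblasts over 6842 and 6387 bp of the gene, and was covered over 23784 and 20927 bp at day 9. The other 2 held over the gene were Krt19, a keratin gene with 713 and 1283 bp and then 376 and 298 bp, and Esrp2, a splicing factor gene with overlapping values of 2469 and 2862 bp and then 2554 and 3647 bp.

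Of 20 pluripotency genes with a start, 8 were gained (Nanog, Nr5a2, Zfp42, Tdgf1, Utf1, Fgf4, Nodal and Mycn), again where 3.44% of all promoters were, 6 were held, 5 were mixed and Esrrb was never listed. Fgf4 went from 0 bp to 7026 and 6594 bp, and Mycn, a MYC family gene, from 0 bp to 6884 and 6318 bp. All 8 gained promoters had a peak in both ESC lists and in both KLF4 lists of day 9, as had 63.4% and 36.0% of all gained promoters. Over whole genes, 13 members divided into 3 gained (Sall4, Tdh and Lefty1), 4 held (Klf5, Tbx3, Gdf3 and Fbxo15), 1 lost, 3 never listed and 2 mixed, where 3.92% of all genes were gained and 58.5% held. Sall4, a zinc finger factor, went from 0 bp to 7892 and 7868 bp, and Tbx3, a T-box factor, from 5865 and 5978 bp to 472 and 555 bp. Dppa2, Dppa4 and Prdm14 had a peak in both ESC lists and none of the 4 lists of MEF and day 9. Dppa3 had 908 and 717 bp in MEF and 0 bp at day 9. Sox2, Klf4 and Pou5f1 are in the cassette, so reads over their exons cannot be told apart from it.

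Other cells that the cultures could hold were looked for by their markers. Of all promoters 36.3% were never listed, and of all whole genes 25.8%. Of 5 macrophage genes with a start, Ptprc, Itgam, Lyz2 and Aif1 were never listed and Cd68 was gained, and over whole genes Csf1r and Spi1 were held, as were 58.5% of all, and Adgre1 and Tyrobp were never listed. Of 5 endothelial genes 3 were never listed, Tek was held and Erg was lost, and over the whole gene Pecam1 was mixed, with 4743 and 4251 bp in MEF and 0 and 944 bp at day 9. Of 5 muscle genes Myf5, Myog and Ckm were never listed, Pax7 was gained, and Des was mixed with 2414 and 3429 bp and then 0 and 367 bp. Of 5 neural genes 2 were never listed, Map2 was held, Tubb3 was gained and Elavl3 was mixed. Of the keratinocyte genes Krt14 was gained and Krt5 never listed, and Trp63 was held over the gene with 6461 and 7646 bp and then 2643 and 1396 bp. The part of such cells in the results was not tested. Fut9, whose enzyme makes the SSEA1 epitope, went from 0 bp to 4852 and 5275 bp over the gene, and Fut4, another such enzyme, was held with 755 and 872 bp and then 872 and 968 bp. With the top 50% of each list Map2, Krt14 and Fut4 were mixed and Tubb3 was never listed, Map2 was also mixed under equal numbers of top peaks, and Tubb3 under the q-value limit.

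Among the promoters of all genes, the 8 gained with the longest day 9 cover were Bcl11a, Fgf4, Fgf9, Mycn, Cldn4, Cobl, Hmgxb4 and Pllp. Bcl11a, a zinc finger repressor gene, had 654 and 329 bp in MEF and 6862 and 7157 bp at day 9. Cobl, an actin nucleator gene, and Pllp, a myelin and epithelial membrane protein gene, went from 0 bp to 6197 and 6388 bp and to 6299 and 5775 bp. All 3 had a peak in every day 3 and day 6 list.

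None of the 3 lost and 3 gained regions listed most strongly had a tabled start within 1 kb. By mean rank of the MEF score, the top 3 lost regions lay 8150 bp from the start of Ecm1 (chr3:95724101-95731419, 7319 bp wide), inside Cubn (chr2:13403601-13412246, 8646 bp) and inside Aopep (chr13:63138181-63142153, 3973 bp), in mm10 coordinates. The 3 gained regions lay inside Nav2 (chr7:49345309-49353258, 7950 bp), 16747 bp from the start of Klf13 (chr7:63955662-63959249) and 117398 bp from that of Dhrs4 (chr14:55356863-55361360). The gained 3 had a peak in every day 3, day 6 and ESC list, whereas none of the lost 3 had one in ESC. The best common regions lay in Ywhaz (chr15:36790942-36795597), in Epc1 and 31039 bp from the start of Zfp169 (chr13:48544475-48551450). The table holds no start for Ywhaz or Epc1, so whether those regions lie at one was not determined.

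Libraries that did not define the classes showed when each class was listed. In unsorted day 3 cells, 80.4% of lost regions had no peak in any of 3 lists and 5.54% had one in all 3, although the day 3 lists held 41471 to 50836 peaks, a range that includes both day 9 lists, over 23.8 to 38.4 Mb. At day 6, 99.2% of lost regions had no peak in any list and 2 regions had one in all 3. In ESC 90.9% had none and 5.96% had a peak in both lists. Of lost promoters, 98.4% were in no day 6 list and 20.4% in both ESC lists, against 65.9% and 63.4% of gained promoters and 7.81% and 94.4% of held ones. Of all promoters 55.5% were in both ESC lists.

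Of the gained regions, 16.2% were in all 3 day 3 lists, 5.81% in all 3 day 6 lists, and 40.0% in both ESC lists, while 51.1% were in neither ESC list. The day 6 lists hold 17493 to 22462 peaks, and 55.8% of common regions were in all 3. Of common regions 79.9% were in both ESC lists and 14.6% in neither. Of the 2386 common regions in neither, 2085 lay away from starts.

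To set the classes against each other within a library, the percent of gained among gained and lost regions with a peak was taken. Gained regions make up 26.3% of the 2 classes. For H3K27ac it was 44.3%, 41.7% and 45.5% in the day 3 libraries, 94.1%, 97.0% and 94.8% at day 6 and 67.8% in both ESC libraries. No stages overlapped, and the means were 43.9% ± 1.94 (SD, n = 3), 95.3% ± 1.49 (n = 3) and 67.8% ± 0.0133 (n = 2). The between-stage F was 831.9 (exact permutation test, p = 0.00357, which is the smallest that 560 labelings can give, and 0.0106 after Benjamini-Hochberg adjustment over 4 tests). Within batch EC-DG-3458 the shares were 41.7% and 45.5% at day 3, 94.1% and 97.0% at day 6 and 67.8% in ESC, and within EC-EA-3702 they were 44.3% at day 3 and 94.8% at day 6. In either batch the day 6 values lay above the day 3 values. Day 3 cells were unsorted and day 6 cells were sorted, so day and sort cannot be told apart.

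**Figure D5:**
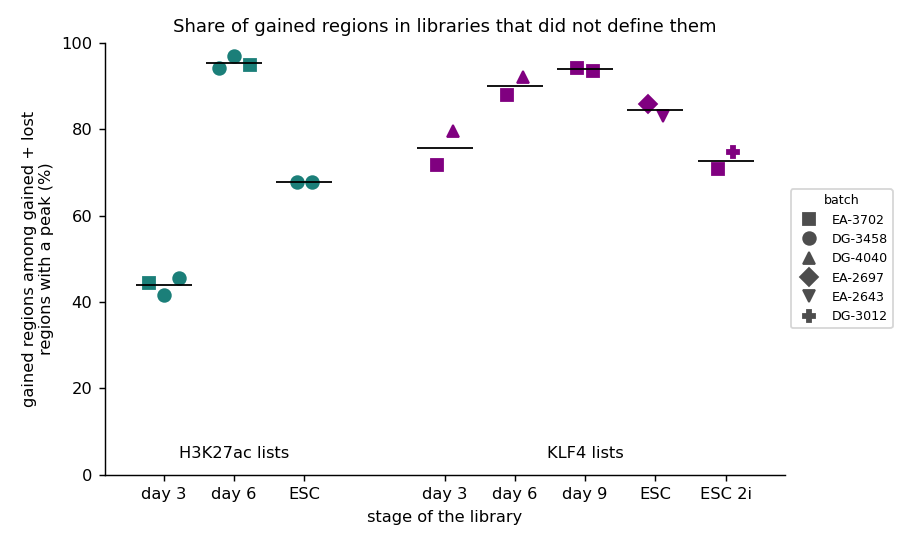
Percent of gained regions among gained and lost regions with a peak (vertical axis) in each library that did not define the classes, by stage, with 1 symbol per batch and a line at each mean. H3K27ac libraries lie at 41.7% to 45.5% on day 3, 94.1% to 97.0% on day 6 and 67.8% in ESC, and KLF4 libraries between 70.8% and 94.1%.

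KLF4 peaks fell on gained far more than on lost regions at every stage. On day 3 the share was 71.8% and 79.6%, on day 6 it was 88.0% and 92.0%, and day 9 libraries had 94.1% and 93.5%. Serum ESC had 85.8% and 83.1%, and ESC with 2i, inhibitors of MEK and GSK3, had 70.8% and 74.6%. The day 9 values were the highest, and the day 3 and 2i values overlapped. The between-stage F was 16.3 (113400 labelings, exact permutation, p = 0.00529, which became 0.0106 after the same adjustment), and p was 0.0624 when peaks were limited to a deposited q-value of at most 0.01. The permutation ignored batch, and none within batches was run for KLF4. Batch EC-EA-3702 holds the 71.8% of day 3, the 88.0% of day 6, both day 9 values and the 70.8% of 2i. Batch EC-DG-4040 holds the 79.6% of day 3 and the 92.0% of day 6, so that day 6 lay above day 3 in each. Day was not separated from sorting here either. Both KLF4 lists of day 9 had a peak in 43.3% of gained, 44.6% of common and 0.781% of lost regions. At promoters, both did so in 49.4% of held, 36.0% of gained and 5.31% of lost ones, against 27.7% of all.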

How the data were processed

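Chromatin was immunoprecipitated for H3K27ac or KLF4 from formaldehyde-fixed cells, per the labels' protocols. The submitters' processing notes name mm10, cutadapt 1.8.1, Bowtie2 2.2.5, deepTools 2.3.6 and MACS2 2.1.1, with no roles or settings. The authors deposited 1 peak list per library, called per sample, in which each peak has a score, a fold enrichment, a −log10 p-value and a −log10 q-value. These are the authors' values and were used only to rank or filter peaks within a list. The lists end near a −log10 p of 2.0. The 13 inputs were not analysed here.

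Peaks on chromosomes 1 to 19 and X were merged, with an overlap of at least 1 bp, by Python 3.11.15 and numpy 2.4.6. Starts and promoter sequences came from RefSeq tables of GRCm38.p6, of the same coordinates as mm10. The table has no start on chromosome 18. A gene with several starts was read at the one with the greatest covered length over the 4 lists. Of 223 members of 15 gene lists, 157 had a start. The members and the lists were chosen with earlier results of these data known, so counts in a list have no test. Per list, at most 4 held, 3 lost and 3 gained members with the longest cover were named, and over all genes 8 per call and 3 regions per class. Values given beyond this rule were chosen after they were seen: those of Col5a1, Thbs2, Smad3, Snai1, Nt5e, Thy1, Tbx3, Des and Pecam1, and those marked so in the text. Other genes beyond it stand in lists of a call's members. The values of 1 gene that this rule named are not reported here.

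Differences between stages were tested by exact permutation of 1 value per library, with Benjamini-Hochberg adjustment over 4 tests and a threshold of 0.05. The test was two-sided for a difference of means, and for F it counted labelings with an F at least as large. The design text calls the samples biological replicates, but the labels do not tie them to separate cultures, so p measures the spread between these samples. Alternatives were a q-value of at most 0.01, equal numbers of top peaks (43974 in the 4 lists, 17493 and 21129 in the other H3K27ac and the KLF4 lists), the top 50% of each list, another overlap, other windows, and leaving out each library. The code was tested on simulated lists.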

Additional observations from a re-analysis of the deposited data

Results flagged for a closer look

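Peaks on chromosome Y stood outside the comparisons. The day 9 lists held 56 and 58 of them, more than the 17 in each MEF list, although the day 9 lists were the shorter ones. The ESC lists held 73 and 61, the day 3 lists 6 to 7 and the day 6 lists 4 to 12.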

How the results depend on the processing

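Calls rest on listed peaks at unknown depth, with 2 libraries per stage and stage tied to batch. With equal numbers of top peaks, lost regions numbered 19091, and with the top 50% of each list 22122, when gained regions numbered 7068. The share of MEF regions common to day 9 was 40.6% and 33.0% in these settings. The share of MEF promoters held was 88.3% under the q-value limit, 91.8% with equal numbers, 85.4% with the top 50% and 88.8% with a window of 2.5 kb. Leaving out 1 library in turn gave 43504 to 65060 lost, 15772 to 23660 gained and 17010 to 17818 common regions, since a class then needs fewer lists. Lost regions numbered 65060 and 64846 without the first and the second MEF library, and gained regions 23660 and 22856 without the first and the second day 9 library. The share of MEF regions common to day 9 ran from 20.0% to 29.1%, and that of MEF promoters held from 88.7% to 91.3%. The KLF4 test gave F 5.39 and p = 0.0624 by exact permutation under the q-value limit, where the cause was not tested. Its F ran from 10.5 to 35.4 when 1 library was left out. An overlap of 50% could not alter the region classes, because each merged region contains its peaks.

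Replicate numbers 1 and 2 are shared by MEF and day 9, but the deviations of same-numbered libraries had a correlation of 0.0042 over starts, so they share only a number. With the replicate block, the 2 tests between MEF and day 9 kept differences of 9.7 points and -204.5 bp, and the exact p was 0.5, the smallest the block allows. For the gained share in other H3K27ac libraries, F was 831.9 with an exact permutation p = 0.0111 within batches and p = 0.0278 with the replicate block within batch, each the smallest possible. With equal numbers of top peaks that F was 273.6, with an exact permutation p = 0.00357 over all labelings. Of 406 comparisons of 58 named promoters, 397 kept the call. The other 9 were at Prrx1, Spint2, Fut4, Map2, Tubb3 and Krt14, under the q-value limit, equal numbers or the top 50%. The comparisons that left out a library say little about stability. A held, lost or gained call needs all lists to agree, so with fewer lists it could change only if another start was read. The sign of the length difference turned in 7, at 5 promoters. Zmynd8, where MEF and day 9 did not overlap in either setting, went from -281.5 to 200.5 bp under equal numbers of top peaks. The others were Map2 under equal numbers and the top 50% (800.5 and 465.0 bp), Fut4 under the top 50% (-329.5 bp), Jund without the first MEF library (-53.5 bp), and H3c11 without the second MEF (-105.5 bp) or second day 9 library (-428.0 bp).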
